A study of Mus musculus with 9 samples.

Results

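Chemokine ligands are small secreted or membrane-bound proteins that guide leukocytes along concentration gradients. The ligand genes described here are those whose GENCODE M21 symbol starts with Ccl or Cxcl and a number, or is Xcl followed by a number or Cx3cl1. Of the 55450 genes counted, 40 had such a symbol. Expression was measured by bulk RNA sequencing of mouse nigral tissue in 9 libraries, 3 from each of 3 groups (replicates A, B and C). All mice were male. The study's methods give an age of 9 weeks when obtained, while its results give a younger age at injection. Each mouse received a bilateral stereotaxic injection of a Cre-dependent lentiviral vector into the substantia nigra. Tissue was taken 5 weeks later after perfusion with saline and dissected by hand. The CTR group consisted of CX3CR1-CreERT2 mice given a vector for the control protein, labelled GFP and described in the study as a destabilized form of it. The CX3 group consisted of CX3CR1-CreERT2 mice given the Synuclein-expressing vector, which the Cre switches on in microglia. The DAT group consisted of DAT-Cre mice given that same Synuclein-expressing vector, which the Cre switches on in dopaminergic neurons. Tamoxifen was given to the CX3CR1-CreERT2 mice, so CTR and CX3 shared genotype and drug and differed in the vector. Genotype, tamoxifen and vector differed together between DAT and CTR, and genotype, tamoxifen and targeted cell type between CX3 and DAT; these cannot be told apart. The Cx3cr1 promoter is active in other myeloid cells as well as microglia, and how many animals gave each library was not given in the sources used here, so p-values measure the spread between libraries, which may be technical.

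Ligands are named by the spacing of their first cysteines (C, CC, CXC and CX3C) and act on G protein-coupled receptors carried by leukocytes. Inflammatory ligands are induced in microglia, astrocytes, endothelium and infiltrating cells by cytokines such as interferon-gamma and TNF, and they draw monocytes, T cells or neutrophils into tissue. Homeostatic ligands such as Cxcl12 and Cxcl14 are made constantly, and Cx3cl1 is displayed by neurons and read by the microglial receptor Cx3cr1.

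The reads counted on genes numbered from 21592817 to 39475428 per library. DAT replicate B stood apart from the other DAT libraries: counts differed from them with a chi-square per degree of freedom of 16.5 and 12.1, against 2.26 between DAT A and C. The same measure was 4.59 and 6.285 between CX3 A and the other CX3 libraries, 2.52 between CX3 B and C, and 1.455 to 1.795 within CTR. The spread thus differed between the groups, while the fit used a single estimate per gene for all of them. Dopaminergic neuron markers (Th, Slc6a3, Slc18a2, Ddc, En1) were present in every library, with a summed level of 406 to 409 CPM (read counts scaled to a common library size) in CTR, 584 to 591 in CX3 and 344 to 349 in DAT. All 5 were called higher in CX3 than in CTR, while in DAT 3 were lower and 2 higher (Slc18a2 0.12, En1 0.22 on the log2 scale). Markers of neighbouring tissues also differed between the groups. The 5 choroid plexus markers summed to 32.8 to 35.7 CPM in CTR, 1468 to 1578 in CX3 and 866 to 1038 in DAT; most of this was Ttr, and in CX3 versus DAT 3 of the 5 were called higher and 2 lower (Kl and Clic6). The 3 pituitary markers summed to 39.9 to 41.8 CPM in CTR and at most 0.415 elsewhere; their part in the results below was not tested. The 3 cerebellar granule cell markers summed to 1.15 to 1.48 CPM in CTR, 2.19 to 2.53 in CX3 and 12.9 to 17.4 in DAT, and the 3 astrocyte markers to 1406 to 1438, 828 to 907 and 923 to 1005 CPM in the same order. No marker of the lists examined was at 0 in every library.

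Of the 40 ligand genes, 30 passed a filter on low counts and were tested, 5 were detected with too few reads to test and 5 were undetected. Detection required 3 or more counts in at least 1 library, and 3 counts corresponded to between 0.0779 and 0.151 CPM. The genes detected but not tested were Cxcl17, Ccl21a, Cxcl2, Ccl20 and Cxcl3. Cxcl17 had 6, 6 and 1 counts in CTR, 2, 1 and 0 in CX3 and 2, 2 and 1 in DAT, and Ccl21a had 0, 2 and 3 counts in CTR, 0, 1 and 3 in CX3 and 0, 1 and 0 in DAT. The neutrophil attractants Cxcl2 and Cxcl3 stayed at or below 3 counts in each library, with 1, 1 and 1 counts in CTR, 0, 2 and 1 in CX3 and 1, 0 and 3 in DAT for Cxcl2 and 3, 2 and 0 counts in CTR, 2, 3 and 1 in CX3 and 0, 1 and 1 in DAT for Cxcl3. Ccl20, the ligand of Ccr6, had 1, 0 and 0 counts in CTR, 2, 2 and 3 in CX3 and 0, 0 and 0 in DAT. The undetected genes were Cxcl15, with 1 count in CTR A and 0 elsewhere, and Ccl19-ps3, Ccl21b, Ccl26 and Ccl27b, with 0 counts in all 9 libraries. Ccl21a and Ccl21b, Ccl27a and Ccl27b, and Ccl19 and its pseudogenes have near-identical copies, and reads that matched several places (3.36% to 4.54% of reads) were not counted on genes, so the levels of these genes are uncertain.

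Called genes were those with an adjusted p under 0.05 in edgeR's quasi-likelihood test with Benjamini-Hochberg adjustment over all 20892 genes tested, and this test gave every adjusted p below unless another is named. In CX3 versus CTR, 15 of the 30 tested ligand genes were called, 10 higher and 5 lower in CX3, against 30.5% of all genes called (14% higher and 16.5% lower). Members called higher with at least a 2-fold change were Ccl8, Ccl1, Ccl24, Ccl11 and Ccl17, 5 of 30 against 1.33% of all genes, and those called lower to that extent were Cxcl5 and Cxcl13, 2 of 30 against 2.26% (3.59% in either direction). Ccl1 and Ccl24 passed the low-count filter only through their CX3 libraries, where they were highest, so their calls add no support to this count. With the DAT and CTR libraries alone, 28 members were tested. The median log2 fold change of the members was 0.031, against −0.0033 for all genes. In DAT versus CTR, 23 of 30 were called, 21 lower and 2 higher (Cx3cl1 and Cxcl12), against 59.9% of all genes called (27.9% lower and 32% higher). For 19 of the 21 the decrease was at least 2-fold, against 12% of all genes and 15.9% with a 2-fold change in either direction. None rose by 2-fold, against 3.88%, and the members' median log2 fold change was −1.54, against −0.0038 for all genes. In CX3 versus DAT, 21 of 30 were called higher in CX3 and 2 lower, against 27.6% and 31.3% of all genes and 58.9% in either direction; 19 were at least 2-fold higher, against 11%, and none was 2-fold lower, against 4.37% and 15.4% in either direction. Their median log2 fold change was 1.55, against 0.010 for all genes. The fitted changes in CX3 versus DAT were greatest for Ccl11 (4.41 ± 0.45, on few DAT reads), Ccl8 (4.31 ± 0.16), Ccl1 (3.23 ± 0.64, also on few reads), Cxcl9 (3.14 ± 0.08) and Xcl1 (3.13 ± 0.39, on few DAT reads). DAT versus CTR shares its DAT libraries with CX3 versus DAT and its CTR libraries with CX3 versus CTR, so the comparisons are not independent.

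**Figure D1:**
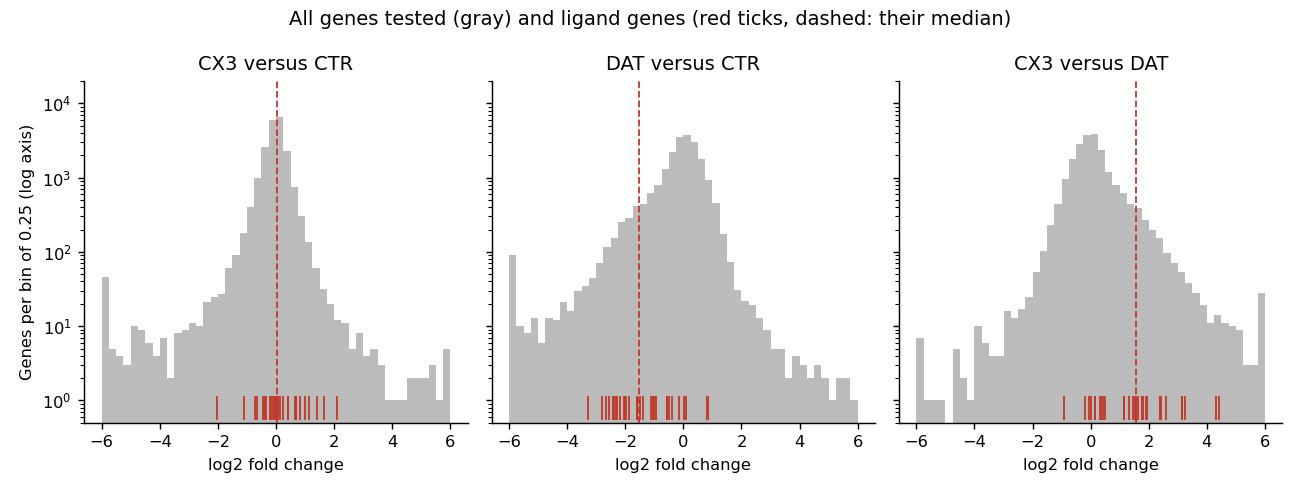
Distribution of the fitted log2 fold change (x axis) over the 20892 genes tested, as the number of genes per bin on a log axis (gray; values beyond the axis are in the outer bins), for each comparison. Red ticks mark the 30 tested ligand genes and the dashed line their median, which sits at 0.031 in CX3 versus CTR, −1.54 in DAT versus CTR and 1.55 in CX3 versus DAT.

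Levels were compared between genes per kilobase of exon (RPKM). The summed RPKM of the ligand genes was 262 ± 2.08 in CTR, 251 ± 5.89 in CX3 and 180.2 ± 6.76 in DAT (mean ± SD, n = 3 libraries, as throughout). Cx3cl1 and Cxcl14 held the first places in CTR, at 41.5 ± 0.417 RPKM and 42.4 ± 0.593 RPKM, and these 2 did not differ beyond their spread. Ccl5, a T cell attractant, followed with 34.7 ± 1.54 RPKM, then the interferon-induced Cxcl10 with 31.0 ± 0.689 RPKM, Ccl12 with 19.8 ± 1.01 RPKM and Cxcl13 with 17.3 ± 0.578 RPKM. In CX3, Cxcl14 and Cx3cl1 held the first places at 41.5 ± 0.763 RPKM and 38.7 ± 0.499 RPKM. Ccl5 (25.5 ± 0.526 RPKM) was followed by Ccl8 (23.8 ± 2.19 RPKM), which had 7.52 ± 0.601 RPKM in CTR. The gap between Ccl5 and Ccl8 lay within their spread. In DAT, Cx3cl1 led with 73.0 ± 2.27 RPKM, ahead of Cxcl14 with 43.2 ± 1.61 RPKM, and the next, Ccl27a, had 12.5 ± 2.41 RPKM. Cx3cl1, Cxcl14 and Cxcl12 together held 33.6% ± 0.161 of the summed RPKM in CTR, 34.6% ± 0.540 in CX3 and 68.9% ± 2.50 in DAT.

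**Figure D2:**
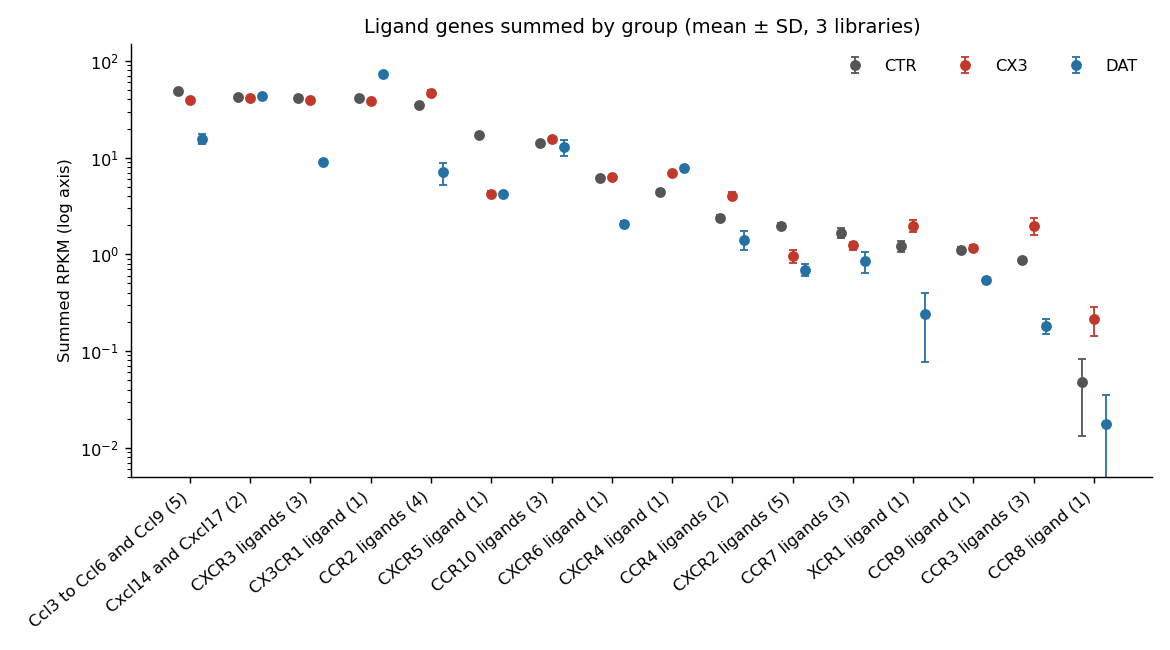
Summed RPKM (y axis, log scale) of the ligand genes in groups named by a main receptor or by their genes (x axis, number of genes in parentheses), as mean ± SD of 3 libraries for CTR, CX3 and DAT; the lower bar of the CCR8 ligand in DAT runs off the axis. The group of Ccl3, Ccl4, Ccl5, Ccl6 and Ccl9 and the ligands of CCR2 and CXCR3 lie lowest in DAT, and the ligand of CX3CR1 lies highest in DAT at 73.0 against 41.5 in CTR.

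Ccl2, Ccl7, Ccl8 and Ccl12 were grouped here as ligands of Ccr2, the receptor of inflammatory monocytes. Whether each of them binds Ccr2 in mouse was not examined. The summed level of the 4 was 34.9 ± 0.235 RPKM in CTR, 46.6 ± 3.57 in CX3 and 7.03 ± 1.76 in DAT. All 4 were called lower in DAT than in CTR, against 27.9% of all genes. In CX3 versus CTR, 1 was called higher, Ccl8 (23.8 RPKM against 7.52), and 1 lower, Ccl12, against 14% and 16.5% of all genes. In bulk tissue, fewer cells of a type and less RNA per cell cannot be told apart. Ccl8 read 3.84, 4.15 and 3.53 CPM in CTR, 13.4, 11.7 and 11.3 CPM in CX3 and 0.521, 0.805 and 0.570 CPM in DAT in replicates A, B and C, the order used for every gene. The 3 groups did not overlap: Ccl8 was 3.15-fold higher in CX3 than in CTR (log2 fold change 1.66 ± 0.11 (SE), adjusted p = 6.54e-08) and lower in DAT (log2 fold change −2.65 ± 0.18 (SE), adjusted p = 2.13e-08). Ccl2, the main monocyte attractant of inflamed brain, read 5.22, 5.08 and 5.47 CPM in CTR, 5.82, 5.31 and 4.82 CPM in CX3 and 0.877, 1.21 and 0.965 CPM in DAT. CX3 and CTR overlapped, with a log2 difference of 0.02 ± 0.11 (95% interval −0.22 to 0.25), and the DAT libraries lay below both (DAT versus CTR −2.40 ± 0.15 (SE), adjusted p = 8.61e-09). Ccl12, a mouse relative of Ccl2, read 10.1, 10.6 and 11.2 CPM in CTR, 8.83, 7.91 and 8.33 CPM in CX3 and 2.002, 2.92 and 1.84 CPM in DAT. It was lower in DAT than in CTR (log2 fold change −2.27 ± 0.13 (SE), adjusted p = 3.50e-09). Its lower level in CX3 than in CTR (−0.35 ± 0.10 (SE), adjusted p = 0.0201) lost its call without CTR B, CTR C, CX3 B or CX3 C (adjusted p from 0.0585 to 0.0851) and in forward-strand counts (0.305). Ccl7 read 2.92, 2.17 and 1.90 CPM in CTR, 2.31, 1.91 and 1.98 CPM in CX3 and 0.768, 0.754 and 0.176 CPM in DAT. The DAT libraries were lowest (−1.98 ± 0.31 (SE), adjusted p = 8.24e-05), and CX3 was not called against CTR (log2 fold change −0.17 ± 0.24, 95% interval −0.68 to 0.34). Ccr2 itself read 3.74, 4.26 and 3.37 CPM in CTR, 9.94, 8.55 and 10.7 CPM in CX3 and 2.17, 2.31 and 2.02 CPM in DAT. This was a log2 fold change of 1.35 in CX3 versus CTR and −0.82 in DAT versus CTR. The 4 monocyte and neutrophil markers (Ly6c2, Plac8, S100a8, S100a9) summed to 47.9 to 48.3 CPM in CTR, 16.0 to 17.2 in CX3 and 4.77 to 5.13 in DAT, with 3 of 4 called lower in CX3 and 4 of 4 lower in DAT than in CTR; their part in these results was not tested.

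Ccl3, Ccl4, Ccl5, Ccl6 and Ccl9 are inflammatory CC ligands that draw leukocytes such as T cells, monocytes and macrophages. They summed to 48.6 ± 1.60 RPKM in CTR, 39.3 ± 0.503 in CX3 and 15.7 ± 1.76 in DAT, and all 5 were called lower in DAT than in CTR, against 27.9% of all genes. Ccl5, which activated T cells and NK cells make, read 34.9, 33.0 and 32.0 CPM in CTR, 24.3, 24.1 and 25.1 CPM in CX3 and 10.5, 12.8 and 10.2 CPM in DAT. The groups stood in the order CTR, CX3, DAT without overlap (CX3 versus CTR −0.44 ± 0.07 (SE), adjusted p = 2.16e-04; DAT versus CTR −1.59 ± 0.08 (SE), adjusted p = 5.20e-10). Ccl3 read 3.84, 3.02 and 3.23 CPM in CTR, 2.86, 2.95 and 2.97 CPM in CX3 and 0.384, 0.654 and 0.746 CPM in DAT. Ccl4 read 2.33, 2.75 and 2.67 CPM in CTR, 2.26, 1.73 and 1.93 CPM in CX3 and 0.192, 0.604 and 0.439 CPM in DAT. Both are early products of activated microglia, and both were lowest in DAT (Ccl3 −2.57 ± 0.21 (SE), adjusted p = 1.40e-07; Ccl4 −2.79 ± 0.28 (SE), adjusted p = 9.38e-07). Their CX3 libraries lay just under the CTR libraries, with no call (log2 fold changes −0.20 ± 0.15 and −0.39 ± 0.19, adjusted p = 0.350 and 0.148). Ccl6, a mouse ligand made by myeloid cells, read 7.49, 8.13 and 8.10 CPM in CTR, 10.6, 10.9 and 9.84 CPM in CX3 and 2.74, 2.82 and 3.69 CPM in DAT. It was higher in CX3 (log2 fold change 0.40 ± 0.09 (SE), adjusted p = 0.00533) and lower in DAT (−1.37 ± 0.12 (SE), adjusted p = 1.82e-07), and the call in CX3 was lost in reverse-strand counts (0.28, adjusted p = 0.166). Ccl9 had group means of 3.73 ± 0.310 CPM in CTR, 3.61 ± 0.380 CPM in CX3 and 2.87 ± 0.334 CPM in DAT, and its call in DAT versus CTR (log2 fold change −0.39 ± 0.14 (SE), adjusted p = 0.0270) was lost without CTR A, CTR B or DAT A (adjusted p from 0.0638 to 0.102), in reverse-strand counts (0.162) and with every gene of at least 1 count kept (0.0566). Its call in CX3 versus DAT (0.34 ± 0.14 (SE), adjusted p = 0.0455) was lost without CX3 A, CX3 C, DAT A or DAT B (adjusted p from 0.0676 to 0.159) and with the replicate letter as a block (adjusted p = 0.0681). It was also lost in DESeq2's test (0.0619), in forward-strand counts (0.0709), with every gene of at least 1 count kept (0.0645) and with the CX3 and DAT libraries alone (0.0605). The 5 T cell markers (Cd3d, Cd3e, Cd3g, Cd4, Cd8a) summed to 40.4 to 41.8 CPM in CTR, 33.6 to 35.9 in CX3 and 9.17 to 10.5 in DAT, with 2 of 5 called lower in CX3 and 5 of 5 lower in DAT than in CTR. The 5 microglia markers given here (Tmem119, P2ry12, Csf1r, Aif1, Sall1) summed to 414 to 417 CPM in CTR, 305 to 311 in CX3 and 291 to 305 in DAT, with 3 of 5 called lower in CX3 and 4 of 5 lower in DAT. The part of these markers in the ligand results was not tested.

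Cxcl9 and Cxcl10, interferon-induced ligands of Cxcr3, draw activated T cells and NK cells. Cxcl11 was grouped with them but is annotated in GENCODE M21 as a polymorphic pseudogene. Whether its RNA makes a working protein in these mice was not examined. Together the 3 genes read 41.9 ± 0.753 RPKM in CTR, 39.2 ± 1.25 in CX3 and 9.09 ± 0.333 in DAT. Between CX3 and CTR the 3 genes went in different directions. Cxcl9 read 31.9, 32.3 and 32.1 CPM in CTR, 58.2, 56.4 and 56.3 CPM in CX3 and 7.38, 5.73 and 5.84 CPM in DAT. It was highest in CX3 with no overlap (CX3 versus CTR 0.83 ± 0.06 (SE), adjusted p = 2.37e-07; DAT versus CTR −2.31 ± 0.08 (SE), adjusted p = 2.06e-11). Cxcl10 read 68.0, 70.2 and 70.9 CPM in CTR, 46.7, 42.5 and 44.5 CPM in CX3 and 15.3, 16.3 and 15.1 CPM in DAT. It was highest in CTR with no overlap (CX3 versus CTR −0.65 ± 0.05 (SE), adjusted p = 4.00e-07; DAT versus CTR −2.17 ± 0.06 (SE), adjusted p = 1.34e-12). Cxcl11 read 1.22, 1.43 and 1.27 CPM in CTR, 2.26, 2.66 and 1.51 CPM in CX3 and 0.411, 0.251 and 0.351 CPM in DAT. Its highest values lay in CX3 (CX3 versus CTR 0.70 ± 0.21 (SE), adjusted p = 0.0228; DAT versus CTR −1.88 ± 0.31 (SE), adjusted p = 1.21e-04). The call of Cxcl11 in CX3 versus CTR was lost without CTR A, CTR C, CX3 A or CX3 B (adjusted p from 0.0605 to 0.113) and in reverse-strand counts (0.43, adjusted p = 0.284), and 41.7% of its exon bases are shared with the annotated pseudogene Gm2673 on the opposite strand. Cxcl10 shares 5.91% of its exon bases with Art3. Reads matching both genes were left out, and the counts used were 87.9% of its forward-strand and reverse-strand counts together. Its level may therefore be too low. The ratio of Cxcl9 to Cxcl10 in RPKM was 0.350, 0.343 and 0.338 in the CTR libraries, 0.930, 0.993 and 0.945 in CX3 and 0.361, 0.262 and 0.290 in DAT. Every CX3 library lay above all others while CTR and DAT overlapped. Ifng, the gene of the cytokine that induces these ligands, read 0.361, 0.357 and 0.267 CPM in CTR, 1.19, 1.13 and 1.07 CPM in CX3 and 0.0548, 0.201 and 0.0439 CPM in DAT. Its log2 fold changes were 1.76 (adjusted p = 3.42e-04) in CX3 and −1.85 (adjusted p = 0.00553) in DAT versus CTR, on counts that were low in every library. Cxcr3 read 3.68, 3.68 and 3.47 CPM in CTR, 2.05, 1.65 and 1.64 CPM in CX3 and 1.26, 1.56 and 1.14 CPM in DAT. It was lower in both CX3 (−1.02) and DAT (−1.46) than in CTR.

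The promoters of Cxcl9 and Cxcl10 are shown as those available for the group of Cxcr3 ligands. These neighbouring genes moved in opposite directions between CX3 and CTR, and the part of the promoters in that was not tested. The sequences are from RefSeq on GRCm38.p6, from 250 bases before to 50 after the annotated start, on the minus strand, at chr5:92328030-92328329 for Cxcl9 and chr5:92348840-92349139 for Cxcl10; capitals mark a match to the core of the interferon-stimulated response element (GAAA, any 2 bases, GAAA).
Cxcl9: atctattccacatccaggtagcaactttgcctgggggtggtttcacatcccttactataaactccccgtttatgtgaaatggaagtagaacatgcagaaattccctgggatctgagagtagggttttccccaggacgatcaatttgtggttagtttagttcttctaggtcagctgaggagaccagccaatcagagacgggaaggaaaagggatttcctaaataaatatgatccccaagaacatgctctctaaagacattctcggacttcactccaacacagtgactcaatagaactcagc
Cxcl10: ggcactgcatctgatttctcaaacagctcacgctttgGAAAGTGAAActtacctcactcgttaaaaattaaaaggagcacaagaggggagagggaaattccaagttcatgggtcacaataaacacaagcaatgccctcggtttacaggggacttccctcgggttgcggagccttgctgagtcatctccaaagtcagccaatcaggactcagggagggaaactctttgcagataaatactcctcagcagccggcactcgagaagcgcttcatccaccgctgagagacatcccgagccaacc
Of the 40 ligand genes, 27 had a promoter in the RefSeq set, and Cxcl11 was not among them. These 27 had 33 promoters, and a gene was counted where any of its promoters matched. The shares over all are per promoter (32851 promoters of 27025 genes), so the units differ. The response element core was found in 3 of the 27 (Ccl19, Cxcl10 and Cxcl14), against 3.44% of all 32851 promoters; in Cxcl10 it read GAAAGTGAAA, 213 to 204 bases before the start. The interferon-gamma activated site (TTC, any 3 bases, GAA) was found in 2 of the 27 (Ccl17 and Cxcl14), against 8.30% of promoters. The kappaB pattern searched (GGGA, any base, TTTCC) matched in 3 of the 27, Cxcl1, Cxcl2 and Cxcl3, against 0.411% of promoters. In each of these the match lay between 97 and 62 bases before the start. Both strands were searched, and the matches did not overlap one another. The Cxcl9 window matched none of the 3 patterns, which describes these letters in this window only. A single fixed pattern was searched for each motif, so variant sites went uncounted in every promoter. The Cxcl10 window, for example, holds gggaaattcc and gggacttccc, which are close to the kappaB pattern without matching it. The Cxcl9 window holds agaaattccc, which is likewise close to that pattern when read on the other strand.

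The neutrophil attractants that act on Cxcr2 were scarce. Cxcl5 read 3.32, 2.86 and 3.10 CPM in CTR, 1.38, 1.33 and 1.64 CPM in CX3 and 1.07, 1.01 and 1.18 CPM in DAT. It was lower in CX3 and in DAT than in CTR with no overlap (CX3 versus CTR −1.09 ± 0.15 (SE), adjusted p = 7.82e-05; DAT versus CTR −1.50 ± 0.16 (SE), adjusted p = 2.37e-06), and CX3 was not called against DAT, although their libraries did not overlap (0.42 ± 0.18 (SE), adjusted p = 0.0602). Scaling by library size alone called Cxcl5 higher in CX3 than in DAT (0.61, adjusted p = 0.00841). Cxcl1 rested on few reads, 15, 17 and 15 counts in CTR, 11, 5 and 17 in CX3 and 0, 6 and 3 in DAT. Its log2 fold change in DAT versus CTR was −2.03 ± 0.66 (SE), adjusted p = 0.0160, and that call was lost without DAT A (adjusted p = 0.0789). Without DAT B, Cxcl1 was also called higher in CX3 than in DAT, with a log2 fold change of 2.45 (adjusted p = 0.0113) while with all libraries it was not called (1.32 ± 0.71 (SE), adjusted p = 0.126).

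Ccl17 and Ccl22, the ligands of Ccr4 on regulatory and type 2 helper T cells, were both called higher in CX3 than in CTR. Ccl17 read 0.624, 0.604 and 0.700 CPM in CTR, 1.48, 1.18 and 1.22 CPM in CX3 and 0.384, 0.704 and 0.263 CPM in DAT. Every CX3 library was higher than the others (CX3 versus CTR 1.01 ± 0.25 (SE), adjusted p = 0.00724), and the call was lost in forward-strand counts (0.76, adjusted p = 0.0989). Its DAT libraries overlapped CTR (−0.56 ± 0.32 (SE), adjusted p = 0.149); the difference was called without DAT B (−0.93, adjusted p = 0.0292) and in forward-strand counts (−1.31, adjusted p = 0.0215). Ccl22 read 2.33, 2.91 and 2.63 CPM in CTR, 3.56, 3.41 and 3.59 CPM in CX3 and 1.37, 0.905 and 1.54 CPM in DAT. The groups did not overlap (CX3 versus CTR 0.42 ± 0.15 (SE), adjusted p = 0.0429; DAT versus CTR −1.02 ± 0.18 (SE), adjusted p = 1.98e-04). The call of Ccl22 in CX3 versus CTR was lost without any 1 of the CTR or CX3 libraries (adjusted p from 0.0532 to 0.165), in DESeq2's test (0.0669), with the replicate letter as a block (0.0715) and in forward-strand (0.0927) and reverse-strand counts (0.328).

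Ccl11, Ccl24, Ccl1 and Xcl1 were low, and their highest values lay in CX3. Ccl11, the eosinophil attractant eotaxin, had 22, 29 and 24 counts in CTR, 52, 63 and 75 in CX3 and 0, 3 and 3 in DAT. Its CX3 libraries were above CTR (log2 fold change 1.14 ± 0.27 (SE), adjusted p = 0.00578), a call that was lost in forward-strand counts (0.94, adjusted p = 0.0636), and DAT was at or below 3 counts in each library (−3.27 ± 0.53 (SE), adjusted p = 9.80e-05). Ccl24, a second eotaxin, had 6, 8 and 5 counts in CTR, 14, 20 and 25 in CX3 and 8, 2 and 1 in DAT. Its log2 fold change in CX3 versus CTR was 1.42 ± 0.40 (SE), adjusted p = 0.0160, and the call was lost without CTR A, CTR C, CX3 B or CX3 C (adjusted p from 0.0524 to 0.0698). Ccl1, a ligand of Ccr8, had 6, 4 and 1 counts in CTR, 14, 24 and 18 in CX3 and 3, 0 and 1 in DAT. It was called higher in CX3 than in CTR (2.11 ± 0.50 (SE), adjusted p = 0.00593), while its DAT libraries overlapped CTR (−1.12 ± 0.87 (SE), adjusted p = 0.285). Xcl1, made by T cells and NK cells and sensed by Xcr1 on cross-presenting dendritic cells, had 22, 20 and 19 counts in CTR, 36, 33 and 46 in CX3 and 2, 2 and 5 in DAT. Its CX3 libraries all lay above CTR without passing the threshold (log2 fold change 0.70 ± 0.26 (SE), adjusted p = 0.0556), and it passed without any 1 DAT library (adjusted p from 0.0384 to 0.0427) and in reverse-strand counts (1.15, adjusted p = 0.00527). It also passed with library size alone (0.0407), with the CX3 and CTR libraries alone (0.0294) and with a filter of 10 counts in every library of a group (0.0496). Xcl1 was lower in DAT than in CTR (−2.42 ± 0.43 (SE), adjusted p = 2.17e-04), and shares 18.7% of its exon bases with Gm20743. The counts used were 51.8% of its forward-strand and reverse-strand counts together, so its level may be too low. Xcr1 read 0.887, 0.604 and 0.833 CPM in CTR, 2.93, 3.32 and 3.23 CPM in CX3 and 0.302, 0.0503 and 0.307 CPM in DAT. Its log2 fold changes were 2.04 in CX3 and −1.67 in DAT versus CTR. The 3 dendritic cell markers (Flt3, Clec9a, Zbtb46) summed to 27.1 to 28.6 CPM in CTR, 29.7 to 31.1 in CX3 and 26.0 to 28.5 in DAT, with 1 of 3 called higher in CX3 and 1 of 3 lower in DAT. The 2 NK cell markers (Ncr1, Klrb1c) were not tested, with summed levels of at most 0.623 CPM.

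**Figure D3:**
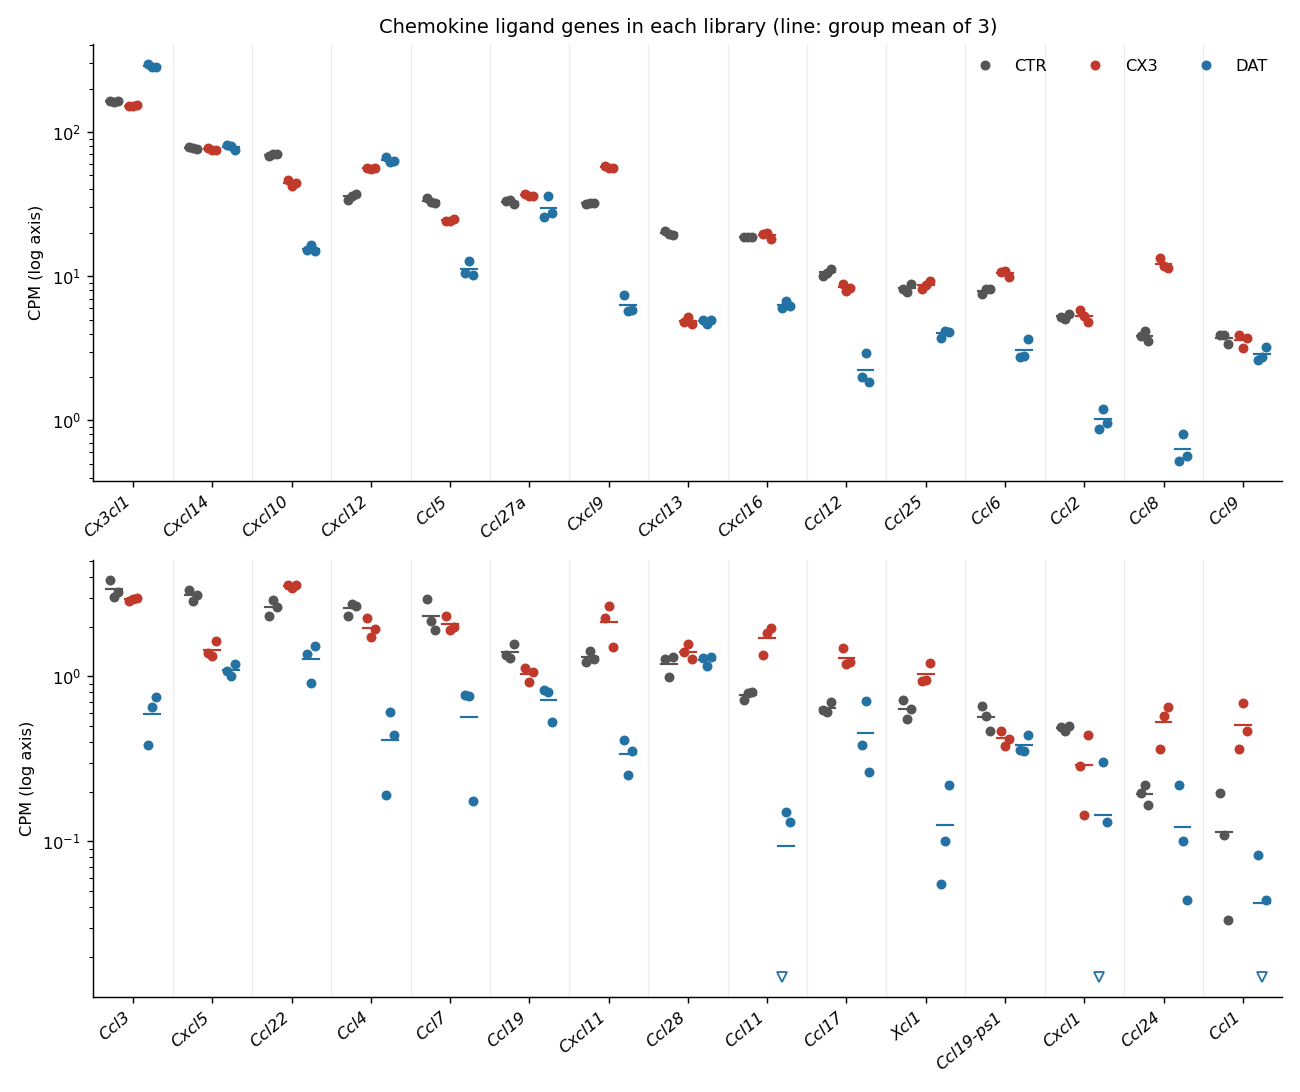
CPM (y axis, log scale) of the 30 tested ligand genes in each library, ordered by mean CPM in CTR, with CTR in gray, CX3 in red and DAT in blue; the line is the mean of 3 libraries and open triangles at the bottom are libraries with 0 counts. The DAT libraries of Cxcl9, Cxcl10, Ccl8 and Ccl2 lie below all others, while those of Cx3cl1 lie above.

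Cxcl13, the B cell attractant sensed by Cxcr5, read 20.6, 19.6 and 19.3 CPM in CTR, 4.803, 5.26 and 4.64 CPM in CX3 and 4.94, 4.63 and 5.003 CPM in DAT. It was lower in CX3 (log2 fold change −2.02 ± 0.08 (SE), adjusted p = 1.30e-10) and in DAT (−2.03 ± 0.08 (SE), adjusted p = 8.21e-11) than in CTR, and CX3 and DAT overlapped (log2 fold change 0.0062 ± 0.09, 95% interval −0.19 to 0.20). Cxcr5 read 0.821, 0.687 and 0.467 CPM in CTR, 0.234, 0.375 and 0.365 CPM in CX3 and 0.110, 0.0503 and 0.132 CPM in DAT. Its log2 fold changes were −1.02 and −2.66 in CX3 and DAT versus CTR. The 5 B and plasma cell markers (Cd79a, Cd79b, Ms4a1, Jchain, Mzb1) summed to 303 to 321 CPM in CTR, 72.5 to 77.5 in CX3 and 10.2 to 13.7 in DAT, and all 5 were called lower in both groups than in CTR; their part in the Cxcl13 result was not tested. The lymph node ligand Ccl19, sensed by Ccr7, had group means of 1.40 ± 0.146 CPM in CTR, 1.04 ± 0.09995 CPM in CX3 and 0.718 ± 0.166 CPM in DAT, called lower in DAT versus CTR (−0.94 ± 0.22 (SE), adjusted p = 0.00230); with library size alone it was also called higher in CX3 than in DAT (0.70, adjusted p = 0.0149). Its pseudogene Ccl19-ps1 had 0.567 ± 0.0955 CPM, 0.420 ± 0.0460 CPM and 0.382 ± 0.0489 CPM in CTR, CX3 and DAT and was called in no comparison, except lower in DAT than in CTR with library size alone (−0.72, adjusted p = 0.0457).

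Cx3cl1 and Cxcl12 were the ligand genes called higher in DAT than in CTR. Cx3cl1, or fractalkine, read 164, 161 and 164 CPM in CTR, 152, 151 and 154 CPM in CX3 and 297, 283 and 281 CPM in DAT. DAT was 1.76-fold above CTR (log2 fold change 0.82 ± 0.04 (SE), adjusted p = 6.82e-10). CX3 lay slightly below CTR without overlap (log2 fold change −0.10 ± 0.04 (SE), adjusted p = 0.0753), and that difference was called without DAT B (−0.093, adjusted p = 0.0309) and with the CX3 and CTR libraries alone (0.0189). Its receptor gene Cx3cr1 read 103, 101 and 103 CPM in CTR, 43.6, 45.3 and 45.0 CPM in CX3 and 85.6, 78.5 and 86.2 CPM in DAT. Its log2 fold changes were −1.20 in CX3 and −0.29 in DAT versus CTR. The Cre of the CTR and CX3 mice sits in the Cx3cr1 locus and that of the DAT mice does not. Cxcl12, which holds cells bearing Cxcr4 in place, read 33.8, 36.1 and 37.4 CPM in CTR, 56.5, 55.7 and 56.1 CPM in CX3 and 67.2, 62.0 and 63.1 CPM in DAT. It was higher in CX3 (0.65 ± 0.05 (SE), adjusted p = 5.04e-07) and in DAT (0.85 ± 0.05 (SE), adjusted p = 7.04e-09) than in CTR, and the call between CX3 and DAT (−0.19 ± 0.05 (SE), adjusted p = 0.00451) was lost when scaling used library size alone (−0.00024, adjusted p = 0.997) and in forward-strand (0.114) and reverse-strand counts (0.177). The 3 endothelial markers (Cldn5, Pecam1, Flt1) summed to 118 to 119 CPM in CTR, 169 to 179.7 in CX3 and 224 to 226 in DAT, with 2 of 3 called higher in CX3 and 3 of 3 higher in DAT. The 4 fibroblast and meningeal markers (Dcn, Lum, Col1a1, Slc6a13) summed to 121 to 123 CPM in CTR, 116 to 125 in CX3 and 177 to 185 in DAT, with 2 of 4 called lower in CX3 and 2 of 4 higher in DAT. The 3 perivascular macrophage markers (Mrc1, Cd163, Lyve1) summed to 20.7 to 22.1, 21.7 to 23.8 and 27.9 to 29.6 CPM in that order, with 1 called higher and 1 lower in CX3 and 3 of 3 higher in DAT. The part of these markers in the Cxcl12 result was not tested. Cxcl14, a constantly made ligand, read 78.4, 77.5 and 76.2 CPM in CTR, 77.3, 74.6 and 75.3 CPM in CX3 and 80.9, 80.4 and 75.6 CPM in DAT. It was called in no comparison, with 95% intervals of −0.13 to 0.06 for CX3 versus CTR and −0.07 to 0.13 for DAT versus CTR on the log2 scale. With library size alone it was called lower in DAT than in CTR (−0.12, adjusted p = 0.0347) and higher in CX3 than in DAT (0.13, adjusted p = 0.0179).

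The remaining ligands bind Cxcr6, Ccr9 and Ccr10. Cxcl16, a membrane-bound ligand of Cxcr6, read 18.6, 18.7 and 18.8 CPM in CTR, 19.6, 20.04 and 18.3 CPM in CX3 and 6.01, 6.69 and 6.19 CPM in DAT. CX3 and CTR overlapped, and DAT was lower (−1.58 ± 0.07 (SE), adjusted p = 3.12e-10). Cxcl16 shares 18.3% of its exon bases with Zmynd15 on the opposite strand. The counts used were 65.6% of its forward-strand and reverse-strand counts together, so its level may be too low. Cxcr6, carried by tissue-resident T cells, read 9.43, 8.49 and 9.10 CPM in CTR, 9.06, 10.1 and 9.37 CPM in CX3 and 2.002, 1.46 and 2.24 CPM in DAT. It was lower in DAT (−2.22). Ccl25, known from thymus and gut, read 8.21, 7.72 and 8.80 CPM in CTR, 8.13, 8.69 and 9.30 CPM in CX3 and 3.73, 4.17 and 4.13 CPM in DAT. It was lower in DAT (−1.05 ± 0.10 (SE), adjusted p = 7.57e-07), and shares 2.74% of its exon bases with Elavl1. The counts used were 87.0% of its forward-strand and reverse-strand counts together. Ccl27a read 33.2, 34.0 and 31.8 CPM in CTR, 37.1, 36.1 and 35.9 CPM in CX3 and 25.6, 36.3 and 27.3 CPM in DAT. DAT B lay within the CX3 range and the other DAT libraries were the lowest. DAT versus CTR was not called (−0.17 ± 0.10 (SE), adjusted p = 0.152), and without DAT B it was (log2 fold change −0.33, adjusted p = 1.59e-05). It was also called with library size alone (−0.31, adjusted p = 0.0115) and in reverse-strand (−0.25, adjusted p = 0.0388) and forward-strand counts (−0.27, adjusted p = 0.0253). CX3 versus CTR was not called (0.14 ± 0.09 (SE), adjusted p = 0.276) but was without DAT B (0.15, adjusted p = 0.0129) and with those 2 groups alone (0.15, adjusted p = 0.0151). CX3 was called higher than DAT (0.31 ± 0.09 (SE), adjusted p = 0.0124), and this call was lost without DAT A (adjusted p = 0.0565). Ccl28, a mucosal ligand, had 1.19 ± 0.174 CPM, 1.41 ± 0.142 CPM and 1.25 ± 0.0854 CPM in CTR, CX3 and DAT and was called in no comparison.

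**Figure D4:**
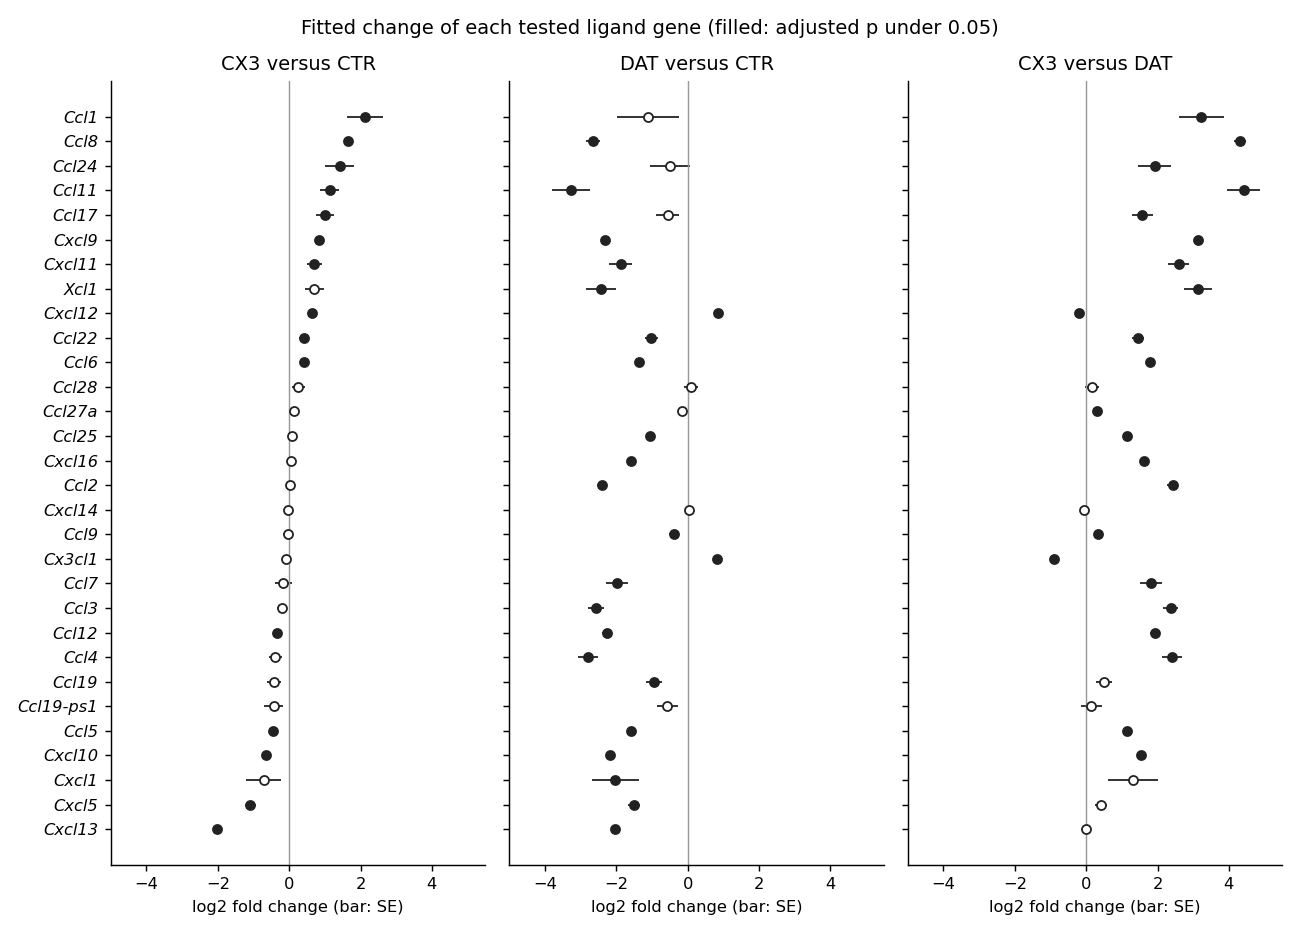
Fitted log2 fold change (x axis, bars ± SE) of the 30 tested ligand genes in the 3 comparisons, ordered by CX3 versus CTR; filled points have an adjusted p under 0.05 in edgeR's quasi-likelihood test. In DAT versus CTR the filled points right of 0 are Cx3cl1 and Cxcl12, and in CX3 versus CTR Ccl1 is the highest at 2.11 and Cxcl13 the lowest at −2.02.

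Ligand genes lie in clusters, which is how many of them arose. With gaps of up to 1000 kb between neighbours, 31 of the 40 fell into 7 clusters and 9 stood alone. The cluster on chromosome 11 from 82035571 to 82305690 (GRCm38) holds Ccl2, Ccl7, Ccl11, Ccl12, Ccl8 and Ccl1: 5 of the 6 were called lower in DAT than in CTR (27.9% of all genes) and all 6 higher in CX3 than in DAT (27.6%), while CX3 versus CTR gave 3 higher and 1 lower (14% and 16.5%). The second on that chromosome, from 83525778 to 83664683, holds Ccl5, Ccl9, Ccl6, Ccl3 and Ccl4. All 5 were called lower in DAT than in CTR (27.9% of all genes) and all 5 higher in CX3 than in DAT (27.6%). CX3 versus CTR gave 1 higher and 1 lower (14% and 16.5% of all genes). On chromosome 8, Ccl22, Cx3cl1 and Ccl17 lie within 66.4 kb, from 94745590 to 94812036. In DAT versus CTR, Ccl22 was lower, Cx3cl1 in the middle was higher and Ccl17 was not called.

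Of 29 receptor and pathway genes (17 receptors, 5 atypical receptors, the ligand genes Pf4 and Ppbp, and 5 inducing cytokines), 23 were tested. In CX3 versus CTR 6 were called higher and 8 lower, against 14% and 16.5% of all genes. In DAT versus CTR 1 was higher and 15 lower, against 32% and 27.9%, and in CX3 versus DAT 13 were higher and 4 lower, against 27.6% and 31.3%. Among the scavenging receptors, Ackr4 read 0.230, 0.192 and 0.233 CPM in CTR, 0.441, 0.607 and 0.677 CPM in CX3 and 0.356, 0.201 and 0.307 CPM in DAT. This was a log2 fold change of 1.39 in CX3 versus CTR. Receptors more than 2-fold lower in DAT than in CTR were Ccr8 (−3.40), Cxcr5, Ccr4 (−2.38), Cxcr6, Xcr1, Cxcr3 and Cxcr4 (−1.39). Ccr6, the receptor of the barely detected Ccl20, was lower in CX3 than in CTR (−1.86, adjusted p = 0.00655). The inducing cytokines Tnf (−2.70) and Il1b (−1.62) were lower in DAT than in CTR, and in CX3 versus DAT Tnf (3.01) and Il1b (2.53) were higher.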

How the data were processed

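RNA was sequenced from 9 libraries (CTR, CX3 and DAT, 3 each; TruSeq Stranded mRNA kit). Per the submitters' processing notes, the authors used Trimmomatic, STAR, featureCounts and DESeq2 with mm10; versions were not given in the sources used here. The deposited files hold counts of whole reads per gene in STAR's layout, in which reads matching several places (3.36% to 4.54%), ambiguous reads (4.34% to 5.67%) and reads outside genes (4.15% to 7.73%) were left out of library sizes. Counts of both strands together were used. The kit marks strand, but the strand columns were near equal (reverse share 49.8% to 49.9%), so overlapping genes on opposite strands cannot be told apart. All gene IDs matched GENCODE M21 (GRCm38).

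Libraries were grouped by their labels. One edgeR 4.0.16 fit (limma 3.58.1, R 4.3.3) over all 9 libraries used filterByExpr, TMM scaling, the quasi-likelihood test and Benjamini-Hochberg adjustment over the 20892 genes kept; calls had an adjusted p under 0.05, with a 2-fold rule beside it. The common biological coefficient of variation was 0.0561. CPM used TMM-scaled library sizes, and RPKM the merged exon length; figures were drawn with matplotlib. The fit was tested on simulated data. Depth was 21592817 to 39475428 counts, and 3 counts (0.0779 to 0.151 CPM) set detection; such floors cover counting error only.

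Every ligand gene was named; values in all libraries were given for those called with a 2-fold change in any comparison or among the 10 highest by RPKM, and receptor and pathway genes were named where called with a 2-fold change. A receptor gene and a marker gene of the lists are not reported here and were left out of the list counts. Members and lists were chosen with earlier results of these data known. Alternatives were DESeq2 1.42.0 (test and size factors), library size alone, other filters, the 2 compared groups alone, strand counts, a test against a 1.5-fold change, a replicate block and leaving out each library.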

Additional observations from a re-analysis of the deposited data

How the results depend on the processing

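The 90 fitted changes of the ligand genes gave 1686 values over 19 alternatives (24 more had none, the gene not passing the filter there). In 1600 the gene stayed called in the same direction or stayed uncalled. The call was lost in 63 and gained in 21, and in 2 an uncalled change took the opposite sign and gained a call. Both of these were Cxcl14 scaled by library size alone (log2 fold change −0.12 in DAT versus CTR and 0.13 in CX3 versus DAT). That scaling shifted the median of all genes by −0.15 in DAT versus CTR and 0.20 in CX3 versus DAT, and the share of called genes that were higher moved from 45.9% to 58.9% in CX3 versus CTR, from 53.4% to 37.8% in DAT versus CTR and from 46.8% to 66.7% in CX3 versus DAT; the members called were then 11 higher and 5 lower, 2 and 24, and 24 and 1. Counts of 1 strand hold fewer reads by construction. In CX3 versus CTR, reverse-strand counts called 6 members higher and forward-strand counts called 9 members, 5 of them higher, with 2 past 2-fold (1 higher and 1 lower); receptor and pathway genes called were 9 (5 lower) and 8 (4 lower). In CX3 versus DAT each strand called 1 member lower, and forward-strand counts called 2 receptor and pathway genes lower. Over all genes, reverse-strand and forward-strand counts called 26.0% and 25.8% in CX3 versus CTR, against 30.5% with both strands together. In CX3 versus DAT each called 56.1% of all genes, against 58.9%. The test against a 1.5-fold change is stricter by construction: in CX3 versus CTR it called 4 members (2 higher and 2 lower) and 6 receptor and pathway genes (3 and 3), and in CX3 versus DAT 1 member lower and 9 receptor and pathway genes (7 higher and 2 lower). Over all genes it called 529, 3773 and 3780 in CX3 versus CTR, DAT versus CTR and CX3 versus DAT, against 6367, 12520 and 12311. The median CPM of the tested members was 1.17 in DAT, 1.08 with library size alone and 1.07 and 1.00 on the reverse and forward strands, and in CX3 it was 3.56 and 3.31 on the forward strand; the cause was not tested.

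Without any 1 library, members called ranged from 11 to 18 in CX3 versus CTR (higher 7 to 12, lower 4 to 6, 2-fold higher 3 to 5), from 21 to 25 in DAT versus CTR (lower 19 to 23) and from 21 to 23 in CX3 versus DAT (higher 19 to 21). The share of all genes called ranged from 21.8% to 39.6%, 53.1% to 61.7% and 52.8% to 61.1% in the same order. The 3 members 2-fold higher were without CTR A. Without DAT B the members called were 18, 25 and 23 in CX3 versus CTR, DAT versus CTR and CX3 versus DAT, while 39.6%, 61.7% and 61.1% of all genes were called. Replicate letters did not pair the libraries (correlations of deviations from −0.16 to 0.040). With the letter as a replicate block, Ccl22 in CX3 versus CTR (adjusted p = 0.0715) and Ccl9 in CX3 versus DAT (0.0681) lost their calls and no other member did. Genes with a few counts per library (Ccl1, Ccl11, Ccl24, Cxcl1, Xcl1) carry the widest errors.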
